A study of Sorghum bicolor with 177 samples.

Results

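The 5 sorghum genes Sobic.003G125701, Sobic.003G131600, Sobic.003G131800, Sobic.008G015800 and Sobic.005G024800 were taken by identifier from the 34129 genes of the deposited expression table. Their closest Arabidopsis genes in the annotation deposited with it are ZIFL2 for Sobic.003G125701 and Sobic.003G131600, both ZIFL2 and ZIFL1 for Sobic.003G131800, and ZIFL1 for Sobic.008G015800 and Sobic.005G024800. They are 5 of 16 genes in the table whose closest Arabidopsis gene is ZIF1, ZIFL1 or ZIFL2. By their identifiers, 3 of them lie on chromosome 3, 1 on chromosome 5 and 1 on chromosome 8; coordinates and sequences were not used here.

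The ZINC-INDUCED FACILITATOR-LIKE (ZIFL) proteins are membrane carriers of the major facilitator superfamily. In Arabidopsis, ZIF1 loads the metal chelator nicotianamine into the vacuole, where zinc is then held, and ZIFL1 acts in polar auxin transport in roots and in potassium fluxes of guard cells. In rice, a ZIFL protein named TOM1 exports deoxymugineic acid, the phytosiderophore with which grasses take up ferric iron. What the sorghum proteins carry is not stated in the deposited annotation.

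The series followed roots and young leaves of the inbred line BTx623 grown in hydroponics, and sequenced 94 root and 83 leaf libraries. After 3 weeks of acclimation, seedlings were moved to 1 of 5 solutions: iron limitation (FeLim, 0 µM NaFe(III)EDTA with 1 µM ZnSO4), iron excess (FeEX, 1 mM NaFe(III)EDTA with 1 µM ZnSO4), zinc limitation (ZnLim, 0 µM ZnSO4 with 50 µM NaFe(III)EDTA), zinc excess (ZnEx, 100 µM ZnSO4 with 50 µM NaFe(III)EDTA) and control (1 µM ZnSO4 with 50 µM NaFe(III)EDTA). Untreated plants were sampled at 0 h, roots in every solution at 1 h and at 2, 4, 7, 14 and 21 d, and leaves at the same times except 1 h. All plants are of 1 genotype, and the labels set the groups apart by solution, time and tissue. Plant age rises with time, and other differences between the groups, such as batches, were not tested.

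Every value below is the authors' mean TPM, a transcript abundance corrected for gene length and scaled to the library total, over the libraries of a group, 31 root means and 26 leaf means, so it carries no SD and no n of its own. The depth of the libraries is unknown, and no interval for a single value can be given. In the FeEX root mean at 7 d, the 10 most abundant genes held 35.5% of the TPM, against 4.27 to 7.74% in the other root means. The part of this in the values of other genes in that mean was not tested. Differences were tested with limma on log2(mean TPM + 1), with each sampling time as a replicate of a solution, and adjusted over all genes with a mean of at least 1 TPM in the tissue (20500 in root, 17067 in leaf). Time and solution were fitted as added effects. The p-values therefore rest on how far the group means depart from these added effects, and not on the spread between plants. For the late minus early level over all solutions, the solutions are the replicates. Leaves and roots matched their labels: the summed level of 11 LHCB light-harvesting genes was 20.7 to 57.5 TPM in root means and 36354 to 154772 TPM in leaf means, and that of 4 CASP genes of the Casparian strip, a root structure, was 16.6 to 146.4 TPM in root means and 0 to 3.63 TPM in leaf means.

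The 5 genes differed first of all in where their transcripts were found. In leaf, all of them passed the filter of 1 TPM, with medians over the 26 means of 56.9 TPM for Sobic.003G125701, 18.6 TPM for Sobic.005G024800, 14.7 TPM for Sobic.003G131600, 9.21 TPM for Sobic.008G015800 and 4.86 TPM for Sobic.003G131800. The ranges of every pair of neighbours in that order overlapped. In root, 2 of the 5 passed, Sobic.003G125701 with a median of 16.8 TPM and a range of 1.19 to 97.7 TPM, and Sobic.005G024800 with a median of 3.16 TPM and a range of 1.44 to 20.4 TPM. The other 3 stayed low in root: Sobic.008G015800 reached at most 0.628 TPM, Sobic.003G131600 at most 0.265 TPM, and Sobic.003G131800 at most 0.116 TPM with 21 of its 31 root means listed at 0.

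Between control roots and control leaves, the 2 genes tested in both tissues were lower in root. Over the 5 shared times the level of Sobic.003G125701 in control was lower in root by a log2 difference of -2.07 ± 0.40 (SE; limma adjusted p = 5.75e-05). For Sobic.005G024800 the log2 difference was -2.01 ± 0.24 (limma adjusted p = 1.08e-07). Such a difference was common, since 82% of the 15522 genes tested differed between the tissues and 17.8% were lower in root. In bulk tissue, fewer cells that express a gene and less of its RNA per cell cannot be told apart.

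**Figure D1:**
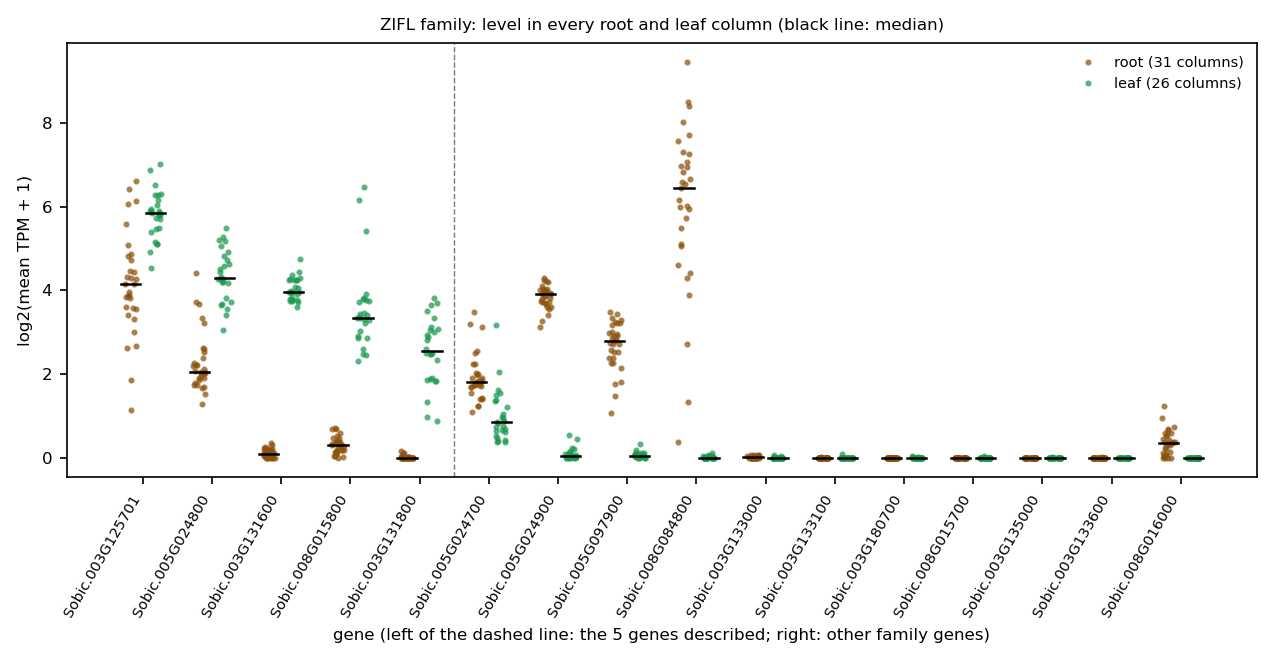
Level of the 5 genes described (left of the dashed line) and of 11 other ZIFL family genes (right) as log2(mean TPM + 1), 1 point per group mean, with root points left of leaf points and black lines at the medians. All 5 genes on the left have a higher median in leaf than in root, while 4 of the genes on the right reach more than 10 TPM in some root mean and Sobic.008G084800 reaches 703 TPM.

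The ZIFL1-like gene Sobic.005G024800 was higher under zinc excess in root. At 1 h, 2, 4, 7, 14 and 21 d it stood at 3.55, 12.1, 11.7, 9.14, 20.4 and 8.33 TPM in ZnEx roots, against 4.73, 1.44, 4.26, 2.62, 3.35 and 3.62 TPM in control roots. At 1 h the ZnEx mean was the lower of the pair, and from 2 d on every ZnEx mean lay above every root mean of the other solutions, the highest of which was 5.18 TPM in ZnLim roots at 14 d. The largest single-time ratios were 8.43-fold at 2 d, when 26% of the root genes were at least 2-fold higher in ZnEx, and 6.09-fold at 14 d, when 5.72% were. The 14 d mean in ZnEx rests on 2 libraries. For the 2 d mean in ZnEx the labels give 2 libraries, while its decimals point to 3. By the numbers in the library names, read here as plant numbers, ZnEx roots at 2 d and at 7 d had 2 numbers in common. ZnEx roots at 1 h and at 21 d had 3 in common, and so had control roots at these times.

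Fitted over the 6 times, Sobic.005G024800 was higher in ZnEx than in control roots by 1.36 ± 0.25 on the log2 scale (SE; limma adjusted p = 0.00466), a 2.57-fold change on the scale of TPM + 1. It was the 1 gene called of the 2 tested in root, where 1.39% of the 20500 genes were called and 1.21% were called higher. Against ZnLim roots the difference was 1.38 ± 0.25 (limma adjusted p = 0.00465), with 0.859% of genes called. This difference does not subtract the control means, but it shares the ZnEx means and the SE of the same fit. Without the 2 d means the difference from control was 1.15 with an adjusted p of 0.0652, and with ZnEx and control means alone the adjusted p was 0.246; against ZnLim the adjusted p was 0.0678 without 4 d and 0.0595 without 7 d.

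In the other 3 solutions no difference of this gene from control was called in root. Its level was 2.20 to 3.81 TPM in FeLim roots, 2.23 to 5.05 TPM in FeEX roots and 1.86 to 5.18 TPM in ZnLim roots, against 1.44 to 4.73 TPM in control roots after 0 h. The fitted differences from control were -0.16 ± 0.25 for FeLim, -0.01 ± 0.25 for FeEX and -0.02 ± 0.25 for ZnLim on the log2 scale, with limma adjusted p-values of 0.982 or more. In these 3 comparisons 0%, 0% and 0.00976% of the root genes were called, so a call was rare for any gene.

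**Figure D2:**
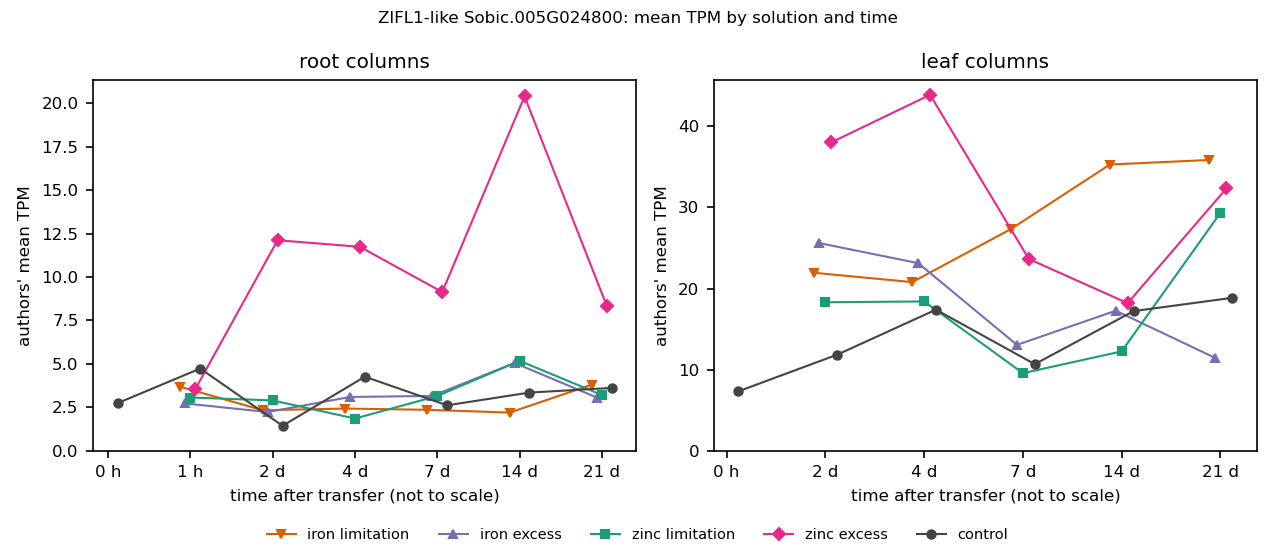
Mean TPM of Sobic.005G024800 in root (left) and leaf (right) at each sampling time, 1 line per solution. In root the zinc excess line is apart from the others from 2 d on, between 8.33 and 20.4 TPM; in leaf both the iron limitation and the zinc excess lines lie above control at every time.

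In leaf the same gene was higher than control under iron limitation. At 2, 4, 7, 14 and 21 d its level was 21.95, 20.8, 27.3, 35.3 and 35.8 TPM in FeLim leaves, against 11.8, 17.4, 10.7, 17.2 and 18.9 TPM in control leaves. The groups did not overlap, and the lowest FeLim mean of 20.8 TPM lay above the highest control mean. The fitted difference was 0.85 ± 0.26 on the log2 scale (limma unadjusted p = 0.00376, adjusted p = 0.047), a 1.80-fold change. It was 1 of 2 genes called among the 5, in a comparison where 8.64% of the 17067 leaf genes were called.

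Zinc excess leaves had values of the same size. The level of Sobic.005G024800 was 38.0, 43.9, 23.6, 18.2 and 32.3 TPM in ZnEx leaves from 2 d to 21 d, beside the control values just given. The ZnEx mean was above the control mean of its own time at all 5 times, with a ratio between 1.06 at 14 d and 3.21 at 2 d. The fitted difference was 0.96 ± 0.26 on the log2 scale with an unadjusted p of 0.00142, but the limma adjusted p was 0.396, and 0.0293% of leaf genes were called in this comparison. That unadjusted p was below the one for FeLim, so it was the adjustment over all genes that left ZnEx without a call. The early part of this effect, 2 d and 4 d, was 1.44 ± 0.33 (limma adjusted p = 0.216), and the late part, 7 d to 21 d, was 0.63 ± 0.27 (limma adjusted p = 0.788). Without 21 d the early part had an adjusted p of 0.0272. The ZnEx leaf libraries at 2 d and 7 d had 3 plant numbers in common, by their library names.

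Whether the effect on Sobic.005G024800 differed between the tissues was tested on the root minus leaf differences. For ZnEx the effect in root exceeded that in leaf by 0.74 ± 0.35 on the log2 scale (limma adjusted p = 0.339), with 0.251% of the 15522 genes called. For FeLim the effect in root was below that in leaf by -0.98 ± 0.35 (limma adjusted p = 0.189), with 0.103% of genes called. Neither difference passed the threshold, so a response of the gene in 1 tissue only was not shown.

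The ZIFL1-like gene Sobic.008G015800 had its 3 highest leaf means under iron limitation. At 2, 4, 7, 14 and 21 d its level was 12.6, 6.58, 88.1, 71.3 and 42.2 TPM in FeLim leaves, against 9.04, 4.46, 14.2, 8.36 and 5.10 TPM in control leaves. The 3 late FeLim means stood above all other leaf means, of which none exceeded the 14.2 TPM of control at 7 d. At these 3 times the FeLim level was 6.23, 8.52 and 8.27 times the control level. At the same times 33.6%, 26% and 11.7% of the leaf genes were at least 2-fold higher in FeLim than in control.

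Over all 5 times the fitted difference of Sobic.008G015800 was 1.85 ± 0.39 on the log2 scale (SE; limma adjusted p = 0.024), a 3.60-fold change on the scale of TPM + 1. For the late times alone it was 2.78 ± 0.24 (limma adjusted p = 1.59e-06) and for 2 d and 4 d it was 0.46 ± 0.29 (limma adjusted p = 1). The late effect exceeded the early one by 2.32 ± 0.38 (limma adjusted p = 0.00491), and this was the 1 gene called of 5, with 3.51% of the leaf genes called. The late effect alone was called for Sobic.008G015800 and for Sobic.005G024800, whose value was 1.06 ± 0.27 (limma adjusted p = 0.0083), beside 37.8% of all leaf genes. For Sobic.005G024800 this call was lost after rescaling to the median (0.66, limma adjusted p = 0.0548), with 7 d counted as early (0.94, limma adjusted p = 0.0858) and without 7 d (0.94, limma adjusted p = 0.0771), and it passed in 7 of 10 alternatives. FeEX leaves had 9.70, 7.21, 12.9, 10.0 and 3.96 TPM of Sobic.008G015800, and they were below FeLim leaves by -1.75 ± 0.39 (limma adjusted p = 0.0147), the 1 call of 5 where 8.34% of genes were called.

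Many other leaf genes were called under iron limitation. The median log2 difference of all 17067 genes between FeLim and control leaves was 0.24 over all times and 0.42 over the late times, and the calls were 1155 higher and 320 lower. Rescaling every mean to a median log ratio of 0 gave 669 higher and 627 lower, and relative to that median Sobic.008G015800 stood at 1.62 (limma adjusted p = 0.0215) and Sobic.005G024800 at 0.63 (limma adjusted p = 0.0718). In the FeEX and FeLim comparison the calls were 410 higher and 1013 lower in FeEX as deposited, and 722 higher and 1054 lower after rescaling. For the late minus early effect they were 506 higher and 93 lower as deposited, and 210 higher and 174 lower after rescaling, with Sobic.008G015800 at 1.88 (limma adjusted p = 0.029).

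Of 10 LHCB genes tested in leaf, 3 fell in FeLim over all times and 6 fell at the late times, with medians of -0.43 and -0.70 on the log2 scale, and the 1 RBCS gene, the small subunit of Rubisco, was at 0.36 and 0.20 without a call. The part of this in the ZIFL values was not tested. Leaving out 7 d, 14 d or 21 d ended both FeLim calls, with limma adjusted p-values of 0.122, 0.196 and 0.126 for Sobic.008G015800 and of 0.231, 0.197 and 0.126 for Sobic.005G024800. With FeLim and control means alone they were 0.0854 and 0.0964, and with no filter on low values 0.0533 and 0.0835. Without 2 d the adjusted p of Sobic.005G024800 was 0.058.

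**Figure D3:**
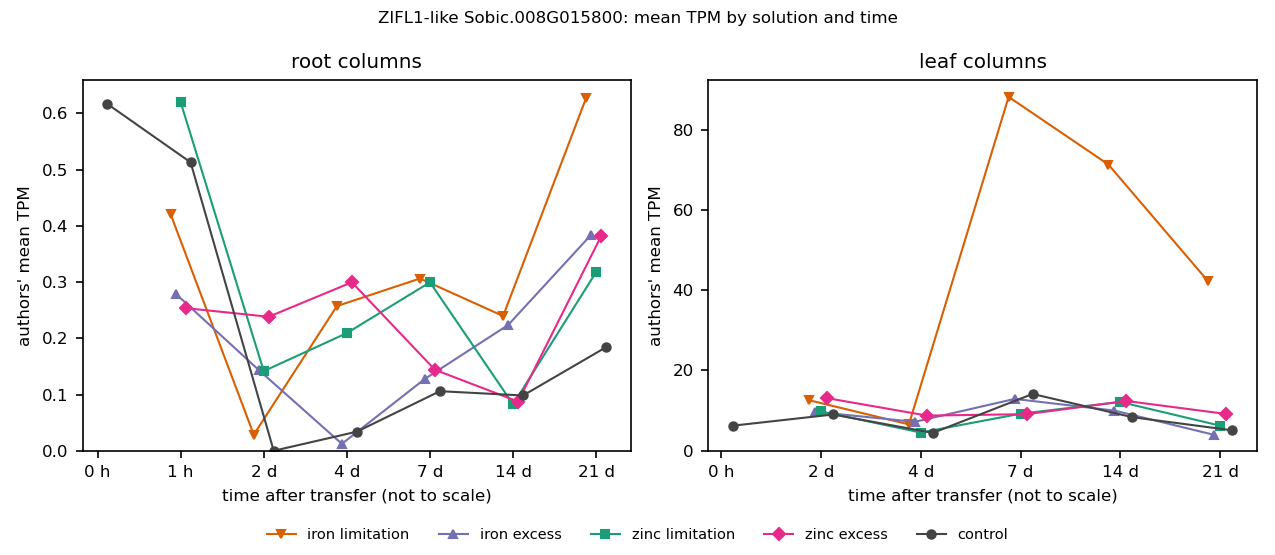
Mean TPM of Sobic.008G015800 in root (left) and leaf (right) at each sampling time, 1 line per solution; the vertical scales differ. In leaf the iron limitation line reaches 88.1, 71.3 and 42.2 TPM from 7 d on while no other leaf mean exceeds 14.2 TPM, and in root no mean exceeds 0.628 TPM.

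The late minus early call of Sobic.008G015800 depended on how early times were represented, since leaf has 2 of them. It was lost without 2 d (2.30, limma adjusted p = 0.155) and without 4 d (2.34, limma adjusted p = 0.121). With 7 d counted as early it was 1.73 with an adjusted p of 0.357. The late effect on its own passed in all 10 alternatives, with adjusted p-values from 2.14e-06 to 0.00507.

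Neither zinc solution gave a called difference of Sobic.008G015800 in leaf. Its level was 9.79, 4.54, 9.24, 12.2 and 6.26 TPM in ZnLim leaves and 13.1, 8.77, 9.11, 12.4 and 9.18 TPM in ZnEx leaves, beside the control values above. The fitted differences from control were 0.06 ± 0.39 for ZnLim (limma adjusted p = 1) and 0.40 ± 0.39 for ZnEx (limma adjusted p = 0.589) on the log2 scale. Both zinc solutions were above control at 4 of 5 times and below it at 7 d.

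The ZIFL2-like gene Sobic.003G125701 was the most abundant of the 5 in both tissues, and its 5 highest root means were those of the 5 solutions at 1 h. At 1 h it stood at 97.7 TPM in FeLim, 47.2 TPM in FeEX, 85.1 TPM in ZnLim, 66.6 TPM in ZnEx and 69.5 TPM in control roots, against 25.3 TPM in untreated roots at 0 h. At 2 d the same solutions had 1.19, 14.7, 9.003, 16.8 and 7.07 TPM. The 5 means at 1 h were thus above the 0 h mean and above all 25 later root means, the highest of which was 32.8 TPM in ZnEx roots at 4 d, and no solution differed 2-fold from control at 1 h.

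In control roots alone, the level of Sobic.003G125701 at 1 h was 2.74 times that at 0 h, a rise of at least 2-fold shared by 7.2% of the root genes. At 2 d it was 9.83-fold lower than at 1 h, in a comparison where 34.8% of the root genes were at least 2-fold lower. The 1 h and 21 d root libraries of each solution bear the same 3 plant numbers in their library names. Whether the same plants were sampled at both times was not tested. Over all solutions, the late minus early level was -0.44 ± 0.30 on the log2 scale (limma adjusted p = 0.391) in root, with 10.7% of genes called, 7.28% higher late and 3.47% lower late. Its size and sign depended on which times and solutions were used. It was -1.05 (limma adjusted p = 0.0294) without 2 d, 0.47 (limma adjusted p = 0.37) without 1 h, and 0.76 with the control means alone, which allow no test.

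**Figure D4:**
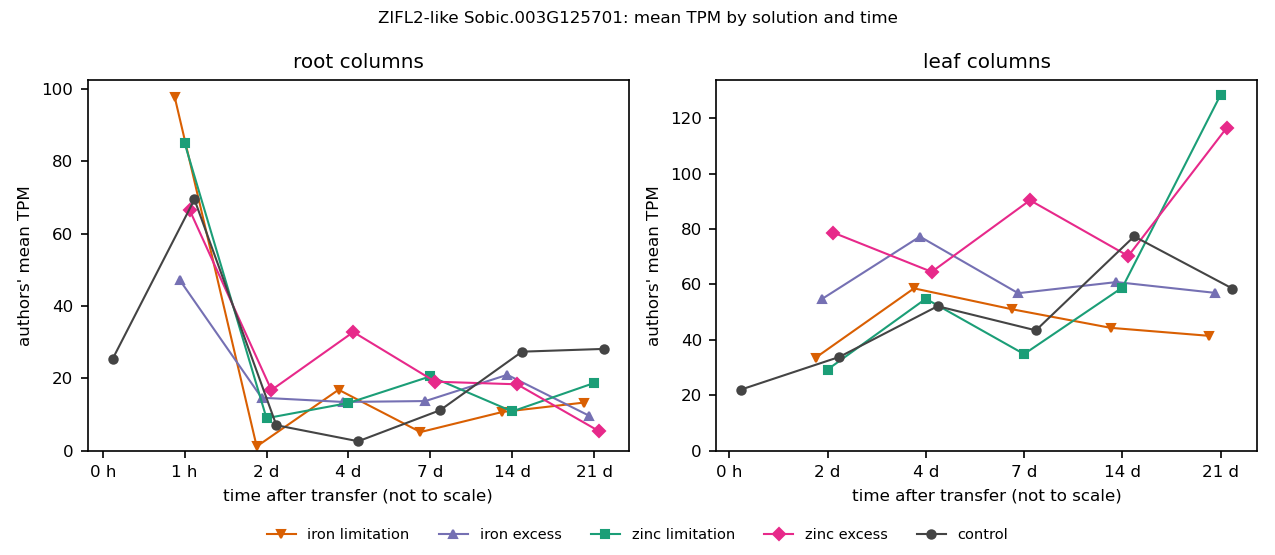
Mean TPM of Sobic.003G125701 in root (left) and leaf (right) at each sampling time, 1 line per solution. In root all 5 solutions are at 47.2 to 97.7 TPM at 1 h and at 1.19 to 16.8 TPM at 2 d; in leaf the lines cross and range from 22.1 to 128 TPM.

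After 1 h the root values of Sobic.003G125701 scattered between solutions without a lasting order. In ZnEx roots it had 32.8, 19.1, 18.4 and 5.42 TPM at 4, 7, 14 and 21 d, against 2.63, 11.2, 27.4 and 28.2 TPM in control roots. The ZnEx level was 12.5-fold higher than control at 4 d and 5.20-fold lower at 21 d. The late effect was below the early one by -2.11 ± 0.92 on the log2 scale (limma adjusted p = 0.227), where 0% of root genes were called. FeLim roots had 16.9, 5.17, 10.7 and 13.3 TPM at these times, FeEX roots 13.5, 13.7, 21.0 and 9.68 TPM, and ZnLim roots 13.2, 20.6, 10.9 and 18.7 TPM.

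The fitted differences of Sobic.003G125701 from control in root were -0.40 ± 0.48 for FeLim, 0.14 ± 0.48 for FeEX, 0.26 ± 0.48 for ZnLim and 0.38 ± 0.48 for ZnEx on the log2 scale. None was called, and the SE is almost double that of Sobic.005G024800 in the same fit.

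In leaf Sobic.003G125701 was higher in ZnEx than in control at 4 of 5 times. Its level was 78.7, 64.5, 90.4, 70.2 and 116.4 TPM in ZnEx leaves, against 33.8, 52.1, 43.4, 77.3 and 58.5 TPM in control leaves. The exception was 14 d. The fitted difference was 0.68 ± 0.25 on the log2 scale with an unadjusted p of 0.0129 and a limma adjusted p of 0.402, so it was not called. Relative to the median of all leaf genes, which was 0.21 in this comparison, the value was 0.46.

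The single highest leaf mean of this gene was 128 TPM in ZnLim at 21 d, 2.19 times the control mean of that day, while the 4 earlier ZnLim means lay between 29.3 and 58.9 TPM. FeEX leaves had 54.7 to 77.2 TPM and FeLim leaves 33.6 to 58.6 TPM, against 33.8 to 77.3 TPM in control leaves after 0 h. The fitted differences were 0.06 ± 0.25 for ZnLim, 0.25 ± 0.25 for FeEX and -0.18 ± 0.25 for FeLim, and none was called. At the late times FeLim was at -0.35 ± 0.32 (limma adjusted p = 0.395), and at -0.75 (limma adjusted p = 0.048) after rescaling to the median.

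Sobic.003G131600, the second ZIFL2-like gene, was the steadiest of the 5 in leaf. Its 26 leaf means ran from 11.3 to 26.1 TPM, and at no time was a solution 2-fold away from control. At 2, 4, 7, 14 and 21 d it had 18.1, 14.7, 15.5, 14.5 and 26.1 TPM in ZnEx leaves, against 14.5, 13.1, 12.3, 18.8 and 19.6 TPM in control leaves. The fitted differences from control were 0.03 ± 0.12 for FeLim, 0.00 ± 0.12 for FeEX, -0.12 ± 0.12 for ZnLim and 0.16 ± 0.12 for ZnEx on the log2 scale, none of them called; those for FeLim, FeEX and ZnEx were below 0 after rescaling to the median of all genes. After that rescaling its late FeLim effect was called lower, at -0.41 (limma adjusted p = 0.0451), against -0.02 without rescaling (limma adjusted p = 0.918). The SE of 0.12 was the smallest among the 5 genes in leaf.

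Over all solutions its late minus early level in leaf was 0.18 ± 0.08 on the log2 scale (limma adjusted p = 0.0901), not a call, in a comparison where 24.6% of the leaf genes were called. With 7 d counted as early the difference was 0.37 (limma adjusted p = 0.00108). At 21 d the 5 solutions had 18.1 to 26.1 TPM, and at 7 d 12.3 to 15.5 TPM.

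Sobic.003G131800, which matches both ZIFL2 and ZIFL1, had the lowest leaf median of the 5, and its leaf means were scattered. At 2, 4, 7, 14 and 21 d it had 2.71, 7.50, 7.25, 9.06 and 13.2 TPM in FeLim leaves, 4.06, 2.63, 7.67, 0.841 and 6.04 TPM in FeEX leaves, 2.55, 4.56, 4.59, 1.52 and 5.07 TPM in ZnLim leaves and 4.65, 2.58, 12.1, 0.963 and 7.02 TPM in ZnEx leaves. Control leaves had 2.73, 10.4, 6.36, 6.69 and 4.63 TPM at those times and 11.5 TPM at 0 h. At 14 d the FeEX, ZnLim and ZnEx means were all below 1.6 TPM while FeLim and control were above 6 TPM, and at 4 d all 4 treatments were below control, FeLim the least so.

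No solution was above or below control at all 5 times. The fitted differences of Sobic.003G131800 from control were 0.29 ± 0.38 for FeLim, -0.54 ± 0.38 for FeEX, -0.60 ± 0.38 for ZnLim and -0.34 ± 0.38 for ZnEx on the log2 scale, and none was called. Its FeEX level was below its FeLim level by -0.83 ± 0.38 (limma adjusted p = 0.172).

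**Figure D5:**
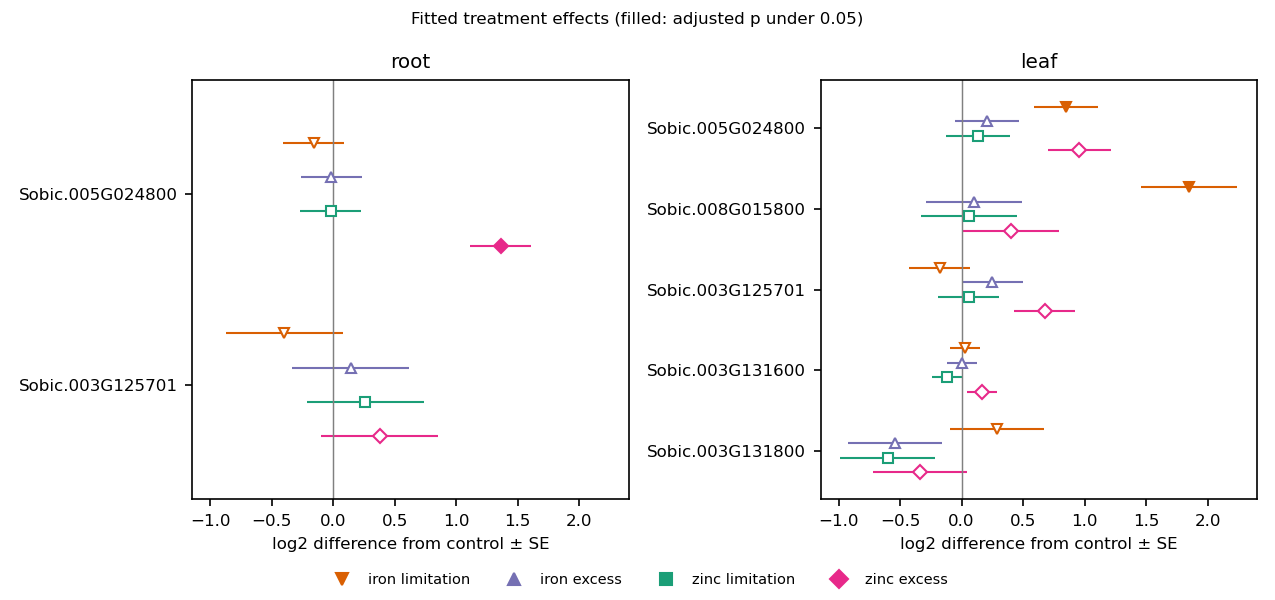
Fitted log2 differences from control with their SE for the genes that passed the filter in root (left) and leaf (right), with filled symbols for adjusted p-values under 0.05. The filled symbols are zinc excess for Sobic.005G024800 in root, at 1.36, and iron limitation for Sobic.005G024800 and Sobic.008G015800 in leaf, at 0.85 and 1.85.

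Over all treatments against control, 3 of the differences of these genes were called, 1 in root under ZnEx and 2 in leaf under FeLim. In FeEX and ZnLim, 0 of the genes tested were called in either tissue. The lowest limma adjusted p-values there were 0.895 among the 2 genes tested in root and 0.999 among the 5 tested in leaf. At an unadjusted p under 0.05, 0 of them passed there too. Among all genes, 0% were called for FeEX and ZnLim in leaf. The comparisons with control share the control means, so they are not independent of each other.

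Correlations among the 5 genes over the means of a tissue were low to moderate. In leaf the Pearson correlation of log2(mean TPM + 1) over the 26 means ran from -0.17, between Sobic.003G125701 and Sobic.008G015800, to 0.50, between Sobic.003G125701 and Sobic.005G024800. In root it was 0.14 between Sobic.003G125701 and Sobic.005G024800 over 31 means. The means share solutions, times and in part plant numbers, and these values are descriptions.

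For each gene, the 3 genes closest in pattern were taken by the same correlation. In root, Sobic.005G024800 was closest to the oxidoreductase gene Sobic.003G109300 (r = 0.91), which reached 70.7 TPM, and next to Sobic.002G074400 and Sobic.003G042900. The last 2 resemble Arabidopsis FQR1, a quinone reductase, and IAGLU, which attaches glucose to the auxin indole-3-acetic acid, and their r was 0.91 and 0.90. Sobic.003G125701 in root was closest to Sobic.009G125900 (r = 0.95), which encodes a protein of unknown function, to Sobic.009G063400 (r = 0.94), which resembles the cellulose synthase gene CESA1, and to Sobic.010G118300 (r = 0.94) of an O-fucosyltransferase family.

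In leaf, Sobic.008G015800 was closest to Sobic.008G000100 (r = 0.95) of the alpha/beta-hydrolases, to Sobic.003G108200 (r = 0.94) of unknown function and to Sobic.001G255300 (r = 0.93), annotated as a pyridoxal-phosphate-dependent decarboxylase. For Sobic.005G024800 the closest were Sobic.010G231300 (r = 0.87), which resembles the glutamate receptor gene GLR3.4, Sobic.008G133700 (r = 0.86), which resembles the transcription factor genes MYB59 and MYB48, and Sobic.001G374400 (r = 0.85), a heavy-metal-associated domain gene. Sobic.003G125701 was closest to Sobic.002G390100 (r = 0.87), similar to the protein kinase gene CIPK1, then to Sobic.007G035700 and Sobic.010G278000 with r of 0.87 and 0.85. Sobic.003G131600 was closest to Sobic.002G034500 (r = 0.87), similar to the dehydration-responsive ERD4, then to Sobic.003G027800 and Sobic.004G341900 with r of 0.87 and 0.86. Sobic.003G131800 was closest to Sobic.006G258700 (r = 0.84), similar to the plastid terminal oxidase gene IMMUTANS, then to Sobic.003G010300 and Sobic.008G041700 with r of 0.81 and 0.79.

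Of the 11 other genes of the family, 4 passed the filter in root and 1 in leaf. Sobic.008G084800 was by far the most abundant in root, with a range of 0.298 to 703 TPM, and reached at most 0.0793 TPM in leaf. At 1 h, 2, 4, 7, 14 and 21 d it had 123, 703, 364, 152, 340.3 and 64.3 TPM in ZnEx roots, against 209, 33.7, 18.6, 52.1, 70.2 and 44.1 TPM in control roots. Its ZnEx means were higher from 2 d on, the times at which Sobic.005G024800 was also higher, but the fitted difference of 2.02 ± 0.76 was not called (limma adjusted p = 0.207). The lowest of its 31 root means was the 0.298 TPM of FeEX roots at 21 d, against 44.1 TPM in control roots.

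Sobic.005G024900, a neighbour of Sobic.005G024800 by identifier, had 7.80 to 18.7 TPM in root, with a ZnEx difference of -0.01 ± 0.17, and at most 0.446 TPM in leaf. Sobic.005G024700 had 1.14 to 10.2 TPM in root and 0.296 to 8.09 TPM in leaf, and its FeLim difference in leaf was 0.84 ± 0.28 (limma adjusted p = 0.0605). Its late FeLim effect in leaf was called, at 1.25 ± 0.35 (limma adjusted p = 0.0132), where 32.5% of all leaf genes were called higher. Its leaf mean after 0 h was 2.89 TPM in FeLim and 0.822 to 0.955 TPM in the other solutions. It thus passed the leaf filter of 1 TPM only through the FeLim means, and its FeLim values are descriptions. Sobic.005G097900 had 1.11 to 10.2 TPM in root and at most 0.261 TPM in leaf. The other 7 were near 0 in both tissues, the highest being Sobic.008G016000 with 1.37 TPM in root at 0 h. Reads shared between such similar copies may have been divided between them, and no source used here says how they were handled.

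Genes annotated to the transport of metals and their chelates or to chelator synthesis were set beside the ZIFL calls. In ZnEx against control roots, 1 of 15 ZIP transporter genes was called, the ZIP10-like Sobic.001G142800, which fell by 1.23 ± 0.31 on the log2 scale (limma adjusted p = 0.0415). Among all root genes 1.21% were called higher and 0.176% lower. ZIP proteins carry zinc and iron into the cytosol. In that comparison 0 of 9 cation diffusion facilitators, 0 of 2 zinc P1B ATPases, 0 of 12 YSL carriers of metal chelates and 0 of 2 genes of nicotianamine and phytosiderophore synthesis were called.

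Against ZnLim roots, 7 of 15 ZIP genes were lower in ZnEx, where 0.0732% of all root genes were. The 4 with the smallest adjusted p were the ZIP4-like Sobic.009G073100 (-2.37 ± 0.31) and Sobic.010G171300 (-2.49 ± 0.45), the ZIP1-like Sobic.002G083200 (-2.02 ± 0.34) and the ZIP5-like Sobic.007G064900 (-3.80 ± 0.65), with limma adjusted p-values from 0.000327 to 0.00449. A difference between ZnEx and ZnLim does not show which of them departed from control. Of these genes, Sobic.002G083200 was called higher in ZnLim than in control roots (1.98 ± 0.34, limma adjusted p = 0.0479). Sobic.001G142800, the ZIP gene called lower in ZnEx than in control roots, was also among the 7. Sobic.005G024800 was higher in ZnEx than in ZnLim roots. The median over the 15 ZIP genes was -0.27, beside 0.00 over all root genes, and 0 genes of the other transport lists were called.

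In FeLim against control leaves, 6.77% of all leaf genes were called higher and 1.87% lower. Of 2 nicotianamine synthesis genes 1 fell, the NAS4-like Sobic.001G151400, by 0.94 ± 0.23 on the log2 scale (limma adjusted p = 0.029). Nicotianamine synthase makes nicotianamine, the chelator that ZIF1 moves in Arabidopsis. Of 2 zinc P1B ATPases, the HMA2-like Sobic.010G250900, of a family that pumps zinc out of the cytosol, rose by 0.94 ± 0.20 (limma adjusted p = 0.0236). In addition, 1 of 9 cation diffusion facilitators, Sobic.006G039400, rose by 0.44 ± 0.13 (limma adjusted p = 0.0442). Of 10 ZIP genes, the ZIP10-like Sobic.001G156800 rose by 5.17 ± 1.51 (limma adjusted p = 0.0419) and the ZIP1-like Sobic.002G083200 fell by 1.39 ± 0.38 (limma adjusted p = 0.0361). Of 8 YSL genes, the YSL7-like Sobic.004G224000 rose by 0.86 ± 0.23 and the YSL7-like Sobic.006G152500 fell by 1.07 ± 0.32, with limma adjusted p-values of 0.0355 and 0.0457.

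Where FeEX leaves were compared with FeLim leaves, 2.4% of all leaf genes were called higher in FeEX and 5.94% lower. Sobic.001G151400 was higher in FeEX by 1.24 ± 0.23 and Sobic.010G250900 lower by -0.69 ± 0.20, with limma adjusted p-values of 0.00883 and 0.0355. The ZIP genes Sobic.001G156800 and Sobic.004G079700 were lower (-6.41 ± 1.51 and -0.55 ± 0.17) and Sobic.002G083200 was higher (1.23 ± 0.38) among 10 tested, and the YSL gene Sobic.004G224000 was lower (-0.98 ± 0.23) among 8. The genes whose FeLim effect in leaf was larger late than early, as it was for Sobic.008G015800, were 2 of 9 cation diffusion facilitators, Sobic.001G445000 (2.28 ± 0.36) and the MTPA1-like Sobic.009G029500 (1.68 ± 0.31), and 1 of 8 YSL genes, the YSL6-like Sobic.006G053100 (1.89 ± 0.43). Their limma adjusted p-values were 0.00386, 0.00943 and 0.0245, in a comparison where 2.96% of all leaf genes were called larger late. Between the tissues in control, 6 of 10 ZIP and 5 of 8 YSL genes were higher in root, where 64.2% of all genes were. Called lower in root were the ZIP genes Sobic.001G142800 (-3.51 ± 0.35), Sobic.007G075700 (-3.43 ± 0.47) and Sobic.002G083200 (-3.02 ± 0.34). The YSL gene Sobic.006G164300 (-2.13 ± 0.20) and the NAS4-like Sobic.001G151400 (-7.05 ± 0.28) were lower there too.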

How the data were processed

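Poly(A) RNA of 177 libraries was sequenced, and the authors deposited mean TPM per group (8 of the 57 columns were recorded as signal only because repeated rows raise their deposited sum). DRAGEN is the tool named in the submitters' processing notes, while a version, genome build, annotation and strand setting were not given in the sources used here. Of 34924 deposited rows, 795 repeats were dropped, leaving 34129 genes. From the decimals of the deposited means, 51 columns averaged 3 libraries; the count differed from the labels for FeEX roots at 7 d and ZnEx roots at 2 d and 7 d. R 4.3.3 with limma 3.58.1 (trend, Benjamini-Hochberg, threshold 0.05) fitted time plus solution to log2(mean TPM + 1) for genes averaging at least 1 TPM. Early meant up to 4 d and late 7 d to 21 d. Single times were compared without a test, at 2-fold and 1 TPM. The method was tested on simulated data with independent errors and no effect of time. That test does not cover plants shared between times or shifts of many genes at once. The genes, lists and tests were chosen with earlier results of these data known. The rule for named genes took the 5 genes, the 3 most correlated genes for each, and up to 4 called genes per transport list; the other ZIFL genes in the text were picked with their values known. Alternatives were a pseudocount of 0.1, no filter, rescaling to the median, no trend, leaving out each time, fewer columns and another early-late boundary. No deposited column of per-sample values was left unused.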

Additional observations from a re-analysis of the deposited data

Results flagged for a closer look

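The effect of iron limitation on Sobic.008G015800 in leaf differed between late and early times, by 2.32 ± 0.38 on the log2 scale (SE; limma adjusted p = 0.00491). It was 2.78 ± 0.24 late and 0.46 ± 0.29 early, with FeLim means of 42.2 to 88.1 TPM late and 6.58 and 12.6 TPM early, against control means of 5.10 to 14.2 TPM late and 4.46 and 9.04 TPM early.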

How the results depend on the processing

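Of 1444 recomputed differences of the 5 genes, 1402 stayed on their side of the threshold, 32 lost a call and 10 gained one, and no called difference changed sign. Most of the 1444 belong to differences that were not called at first, and these had no call to lose. The 1402 therefore do not measure how stable the calls were. In root, the ZnEx count of 1 called ZIFL gene was 0 with only the ZnEx and control means and 0 to 1 when each time was left out; against ZnLim it was also 0 to 1 when each time was left out. In leaf, the FeLim count of 2 was 0 with no filter, 1 after rescaling to the median, 0 with only the FeLim and control means, and 0 to 2 when each time was left out. The FeEX against FeLim count of 1 was 0 to 1 when each time was left out, and the late minus early FeLim count of 1 was 0 to 1 and fell to 0 with 7 d counted as early. The counts of 0 for the late minus early level were 0 to 1 in both tissues when each time was left out, and in leaf 1 after rescaling (Sobic.005G024800, -0.43) and 1 with 7 d counted as early. The control root against control leaf count of 2 was 5 with no filter, which tests all 5 genes. The late ZnEx effect of Sobic.005G024800 in root, 1.60 ± 0.37 (limma adjusted p = 0.0459, with 0.751% of genes called), passed in 4 of 11 alternatives, and its adjusted p ran from 0.0188 to 0.395. The causes of these changes were not tested. No paired analysis was possible because the deposited columns are group means without replicates. The means hide the spread between plants, the depth is unknown, and levels near 0 in root limit what could be seen for 3 of the 5 genes.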
